A study of Mus musculus with 72 samples.

Results

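Hearts of mice exposed to 40 cGy of 137Cs gamma rays were compared with hearts of sham-treated mice, 16 months after the exposure. The comparison held 10 of the 72 arrays of the series, chosen by their sample titles: 5 hearts at 40 cGy (Cs 40 cGy) and 5 sham hearts (Cs sham). The exposed animals were female CB6F1/Hsd mice, a hybrid strain, that were 100 to 120 days old and received a single dose to the whole body while awake. The Cs sham animals were females of the same strain and age that spent an equal time in the plastic holders without radiation. The series also held higher doses of 137Cs (80, 120 and 160 cGy), 4 doses each of silicon (Si) and titanium (Ti) ions, and a separate sham group for each radiation type. RNA of snap-frozen heart tissue was hybridised to Clariom S Mouse arrays, 1 array per heart, so that all cell types of the heart were measured together. In both groups, replicates 1 to 3 carried the label of processing batch 1 and replicates 4 and 5 that of batch 2. The sources used here do not give the hour at which each mouse was killed.

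Heart muscle, like most tissues, keeps time with a molecular clock. The activator Arntl, paired with Clock or Npas2, switches on genes through a DNA element called the E-box. Among these genes are period and cryptochrome genes and Ciart, whose proteins block the activators, and the REV-ERB genes Nr1d1 and Nr1d2, whose proteins silence Arntl through an element called the RORE. The output factor Dbp acts on another element, the D-box. Genes of the 2 arms peak at different hours of the day, so that Arntl is low when Dbp is high.

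A log2 signal of 1 unit more stands for a doubling. Values below are log2 signals after quantile normalization over all arrays, and changes are Cs 40 cGy minus Cs sham from a limma model of the 24 Cs hearts that held terms for dose and for batch. A gene was called at a Benjamini-Hochberg adjusted p under 0.25 over all 19505 genes tested, the threshold that the study used. Called genes numbered 43, which is 0.22% of the genes tested, with 29 higher and 14 lower in Cs 40 cGy hearts (0.149% and 0.0718%). At an adjusted p under 0.05 there were 12 genes (0.0615%), 7 higher and 5 lower, and at an unadjusted p under 0.05 there were 999 (5.12%). Changes were small: 4 of the 43 genes passed a 2-fold change, and the median absolute change was 0.60, against 0.08 over all genes. Over all genes the median change was -0.00, and 49.6% of the genes lay above 0.

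**Figure D1:**
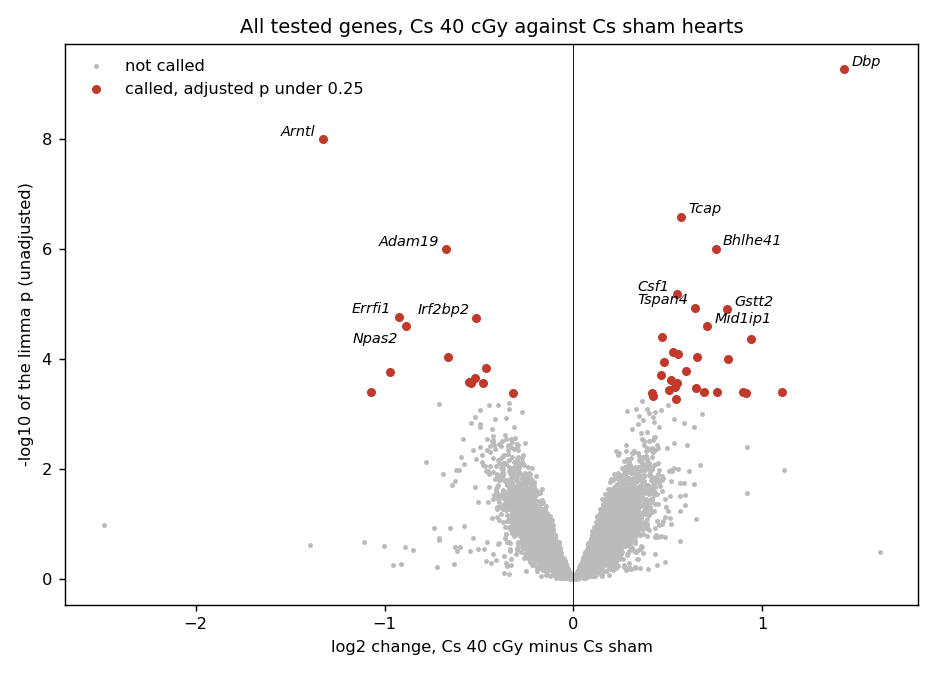
Change of each of the 19505 tested genes, Cs 40 cGy minus Cs sham (log2, horizontal axis), against its unadjusted limma p (-log10, vertical axis). Red points are the 43 called genes and grey points the others; names mark the 12 genes with an adjusted p under 0.05, with Dbp at the far upper right and Arntl at the upper left.

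The 10 arrays were close to each other over all genes (correlations of 0.976 to 0.991), and cardiomyocyte markers stood high in all of them. The summed level of 10 cardiomyocyte markers ran from 15.40 to 15.44 log2 units in Cs 40 cGy hearts and from 15.42 to 15.44 in Cs sham hearts, and none of the 10 was called (median change -0.00). Arrays differed in their overall deposited level, with medians of 5.47 to 6.18 in Cs 40 cGy hearts and 5.01 to 6.04 in Cs sham hearts, which is why they were normalized first. Replicate 4 at 160 cGy, a heart outside the comparison that helps to estimate the batch difference, is labelled batch 1 but lies with batch 2: after centring each gene on its mean over the Cs arrays, its mean correlation over genes was -0.22 with the other arrays labelled batch 1 and 0.25 with those labelled batch 2. Without it 57 genes were called, among them all 43. The number of hearts limits the precision of each value. The p-values rest on a spread between hearts that was estimated over all 24 Cs hearts, not over the 10 compared hearts alone.

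The single hearts behind the calls are described here without a test, since the calls were made from these same hearts. Of the 43, 27 had no overlap between the 5 Cs 40 cGy hearts and the 5 Cs sham hearts, against 0.805% of all genes. Batch 1 and batch 2 each showed the difference with no overlap in 42 of the 43 genes, against 2.82% of all genes. The exception was Vsir, whose lowest Cs 40 cGy heart (6.98) lay within the sham range. Within-batch changes had the same sign in both batches for all 43 genes, and no gene of all those tested differed in its change between batches (0 genes at an adjusted p under 0.25 in limma, 689 at an unadjusted p under 0.05).

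Some calls rested on few hearts. When each of the 10 hearts was left out in turn, 14 of the 43 genes were called every time. These were the clock genes Dbp, Arntl, Npas2, Per3 and Bhlhe41, and Tspan4, Tcap, Adam19, Csf1, Gstt2, Errfi1, Irf2bp2, Mid1ip1 and Rgma. The other 29 lost the call in at least 2 of these 10 fits, and Slc7a2 lost it in all 10. No gene changed its direction.

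The called clock activators were lower, and the called clock repressors higher, in Cs 40 cGy hearts than in Cs sham hearts. Of the 4 activator genes measured, 2 were called, both lower, with a median change of -0.61 over the 4. Of the 11 repressor genes, 6 were called, all higher, with a median change of 0.47. Of 9 genes listed as clock outputs, 2 were called, Dbp and the tetraspanin gene Tspan4, both higher, with a median change of 0.30 over the 9. The call shares over all genes were 0.149% higher and 0.0718% lower. These 10 genes were among the 43 called, and 5 of them (Dbp, Arntl, Bhlhe41, Npas2 and Tspan4) were among the 12 with an adjusted p under 0.05. The lists, with Tspan4 among the outputs, were chosen with earlier results of these data known, which favours called members in them. The counts therefore describe the lists and are no independent support.

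E-boxes, ROREs and D-boxes were looked for in the start regions of the called genes, since these elements join the clock genes to each other. RefSeq start windows, 250 bases before to 50 bases after a transcription start in GRCm38.p6, were held for 31 of the 43 genes, some with several starts (45 windows). The windows shown are those of Ciart, Bhlhe41, Per3 and Arntl that contained at least 1 element, printed 5′ to 3′ with the element in capitals. Tspan4, from the list of clock outputs, also had an E-box and is not shown.
Ciart, chr3:95882179-95882478, minus strand: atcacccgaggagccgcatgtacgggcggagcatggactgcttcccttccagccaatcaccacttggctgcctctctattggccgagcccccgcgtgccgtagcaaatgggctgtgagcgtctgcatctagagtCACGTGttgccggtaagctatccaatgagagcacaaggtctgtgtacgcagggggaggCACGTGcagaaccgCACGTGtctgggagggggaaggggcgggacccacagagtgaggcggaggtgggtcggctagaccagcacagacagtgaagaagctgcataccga
Bhlhe41, chr6:145865371-145865670, minus strand: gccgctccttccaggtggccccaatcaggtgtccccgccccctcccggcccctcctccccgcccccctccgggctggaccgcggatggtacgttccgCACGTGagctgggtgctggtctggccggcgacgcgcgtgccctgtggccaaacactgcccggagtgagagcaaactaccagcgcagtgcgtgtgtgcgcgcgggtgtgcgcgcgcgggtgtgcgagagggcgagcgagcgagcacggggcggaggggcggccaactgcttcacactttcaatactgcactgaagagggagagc
Per3, chr4:151044616-151044915, minus strand: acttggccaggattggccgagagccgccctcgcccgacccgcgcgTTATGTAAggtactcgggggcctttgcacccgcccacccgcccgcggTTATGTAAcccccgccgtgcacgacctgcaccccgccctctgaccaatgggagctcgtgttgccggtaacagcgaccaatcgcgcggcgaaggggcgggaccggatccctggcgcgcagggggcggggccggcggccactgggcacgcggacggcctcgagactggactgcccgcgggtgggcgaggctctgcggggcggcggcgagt
Arntl, chr7:113207261-113207560, plus strand: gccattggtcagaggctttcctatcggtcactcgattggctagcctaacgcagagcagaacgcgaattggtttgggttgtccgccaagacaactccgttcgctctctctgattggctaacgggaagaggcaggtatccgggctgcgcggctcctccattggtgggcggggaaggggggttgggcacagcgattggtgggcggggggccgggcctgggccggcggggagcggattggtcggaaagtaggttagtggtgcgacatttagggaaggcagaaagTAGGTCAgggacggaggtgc
In Ciart the capitals mark 3 E-boxes (CACGTG, the same on both strands), and in Bhlhe41 they mark 1. In Per3 they mark 2 D-boxes (TTATGNAA, both strands searched), and in Arntl, which has 2 windows of which the one with an element is shown, a RORE core (TAGGTCA or TGGGTCA, both strands searched). No 2 of the marked elements overlap. An E-box was present for 6 of the 31 genes (19.4%), against 9.26% of the 15691 tested genes with a window. These 6 lay in both directions. They were 3 of 20 genes called higher (15%: Bhlhe41, Ciart and Tspan4) and 3 of 11 called lower (27.3%: Adam19, Irs2 and Sgk1). A D-box was present for 2 of 31 (Per3 and Syne1, 6.45%, against 3.68%), and a RORE core for 2 of 31 (Arntl and Fmn1, 6.45%, against 6.76%). Such a match describes the letters in the window only, and the difference between these shares was not tested.

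Arntl, the core activator, had the largest fall of all called genes. Its log2 signals were 5.90, 6.09, 5.87, 6.52 and 6.32 in Cs 40 cGy hearts, against 7.59, 7.46, 7.43, 7.09 and 7.75 in Cs sham hearts. All 5 exposed hearts lay below all 5 sham hearts. The means were 6.14 ± 0.28 in Cs 40 cGy hearts and 7.46 ± 0.24 in Cs sham hearts (SD, n = 5 each), a fall by 1.33 on the log2 scale (SE 0.15, limma adjusted p = 9.954e-05) to 0.399 of the sham level.

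Npas2, which can stand in for Clock as the partner of Arntl, followed the same direction. It had 4.67, 5.10, 4.64, 5.24 and 4.61 in Cs 40 cGy hearts, against 5.42, 5.57, 5.65, 6.05 and 6.02 in Cs sham hearts, again with no overlap. The change was -0.89 (SE 0.17, limma adjusted p = 0.0415). Clock itself was not called (-0.34, SE 0.09, limma adjusted p = 0.301), and neither was the nuclear receptor gene Rora (0.06, SE 0.11).

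Dbp, which codes for the output factor that binds D-boxes, had the largest rise of all called genes. Its signals were 10.94, 10.72, 10.74, 10.76 and 10.85 in Cs 40 cGy hearts, against 9.15, 9.27, 9.22, 10.13 and 9.05 in Cs sham hearts. The exposed hearts lay close together, while sham replicate 4 stood about 1 unit above the other sham hearts. The means were 10.80 ± 0.09 in Cs 40 cGy hearts and 9.37 ± 0.44 in Cs sham hearts (SD, n = 5 each), a change of 1.44 (SE 0.14, limma adjusted p = 1.079e-05) or 2.71-fold. Leaving out single hearts moved this change between 1.32 and 1.62.

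Per3, a period gene of the repressor arm, rose by 0.94 (SE 0.19, limma adjusted p = 0.0607). It had 7.60, 7.38, 7.21, 6.66 and 6.66 in Cs 40 cGy hearts, against 5.94, 6.18, 6.48, 6.65 and 5.55 in Cs sham hearts. Groups stayed apart by a small margin, because the exposed hearts of batch 2 reached only the level of the highest sham heart. Within batch 1 the change was 1.20, and within batch 2 it was 0.56.

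Bhlhe41 codes for DEC2, a repressor that competes for E-boxes. It had 8.46, 8.51, 8.51, 8.49 and 8.58 in Cs 40 cGy hearts, against 7.60, 7.63, 7.65, 8.19 and 7.72 in Cs sham hearts. Exposed hearts spanned a narrow range that no sham heart reached, and sham replicate 4 was again the highest sham heart. The change was 0.75 (SE 0.11, limma adjusted p = 0.00397).

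Ciart, whose protein binds Arntl and blocks it, had 6.24, 6.08, 6.05, 6.07 and 6.16 in Cs 40 cGy hearts. In Cs sham hearts it had 5.18, 5.65, 4.66, 5.88 and 4.74. Sham hearts scattered over more than 1 unit (SD 0.54) and exposed hearts hardly at all (SD 0.08), and the groups did not overlap. Ciart rose by 0.90 (SE 0.22, limma adjusted p = 0.201), a call that was lost when any of 8 single hearts was left out.

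Cry2, a cryptochrome gene, rose by 0.55 (SE 0.12, limma adjusted p = 0.0983), with 7.45 to 7.93 in Cs 40 cGy hearts against 6.73 to 7.56 in Cs sham hearts. The REV-ERB gene Nr1d1 rose by 0.76 (SE 0.18, limma adjusted p = 0.201), with 8.88 to 9.54 in Cs 40 cGy hearts against 7.68 to 8.86 in Cs sham hearts. Its relative Nr1d2 rose by 0.47 (SE 0.11, limma adjusted p = 0.158), with 8.20 to 8.89 in Cs 40 cGy hearts against 7.55 to 8.38 in Cs sham hearts. Only Nr1d1 of these 3 repressors kept the groups apart over both batches; Cry2 and Nr1d2 did so within each batch. The call was lost in 3 of the 10 fits without a heart for Cry2, in 8 for Nr1d1 and in 6 for Nr1d2.

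Other repressors did not pass. Per2 was at 0.42 (SE 0.13, limma adjusted p = 0.683) and Bhlhe40, the close relative of Bhlhe41, at 0.35 (SE 0.11, limma adjusted p = 0.753). Per1 and Cry1 had changes below 0, of -0.26 (SE 0.17) and -0.21 (SE 0.14). Of the 11 repressors, 8 had changes above 0 and 3 below. The lowest was at -0.43, with an unadjusted limma p under 0.05. With array weights 6 repressors were called higher and 1 lower. The number of called repressors ran from 2 to 6 when single hearts were left out. It was 2 without Cs 40 cGy replicate 1, 3 without Cs 40 cGy replicates 2, 3 or 5 or without sham replicates 1, 3 or 5, and 4 without Cs 40 cGy replicate 4. It was 2 without a batch term, with array medians aligned or with only the compared groups fitted, 3 with batch as a random block or all 72 arrays fitted, and 0 in the values as deposited.

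Tspan4, a tetraspanin membrane protein gene that stood in the list of clock outputs, had 6.96, 6.84, 6.98, 6.84 and 7.19 in Cs 40 cGy hearts, against 5.96, 6.36, 6.38, 6.50 and 6.37 in Cs sham hearts. The change was 0.65 (SE 0.12, limma adjusted p = 0.0307), and the groups did not overlap. Among outputs that were not called, Usp2, a deubiquitinase, was at 0.35 (SE 0.09, limma adjusted p = 0.357) and Hlf, a relative of Dbp, at 0.51 (SE 0.18, limma adjusted p = 0.809). Tef, the third of these related factors, was at 0.18 (SE 0.15), and Wee1, a kinase that delays mitosis, at 0.19 (SE 0.15). Of the 9 listed outputs, 8 had changes above 0 and 1 below, at -0.39 with an unadjusted limma p under 0.05.

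**Figure D2:**
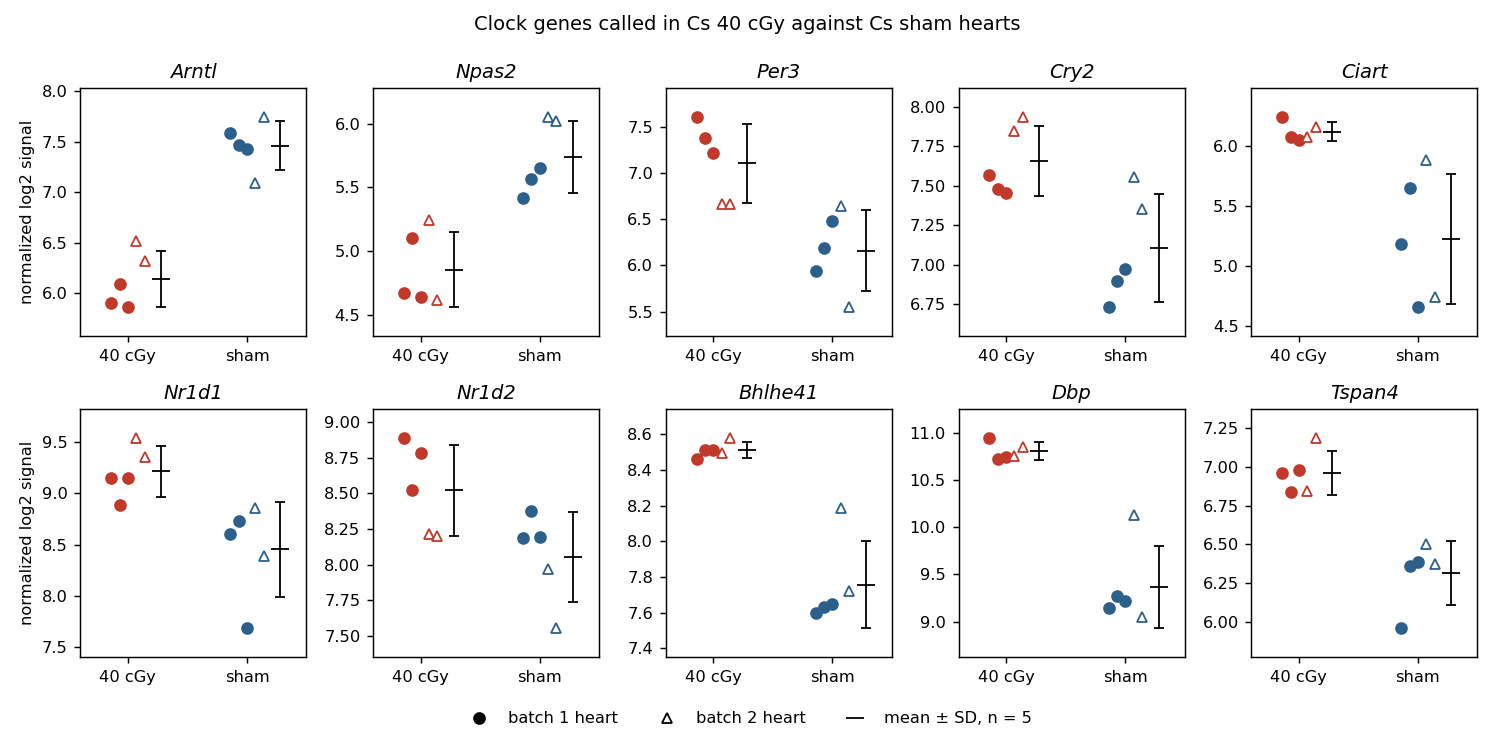
Normalized log2 signal (vertical axes, each with its own range) of the 10 called genes of the clock lists in single hearts, Cs 40 cGy left and Cs sham right in each panel. Filled circles are batch 1 hearts, open triangles batch 2 hearts, and bars the mean ± SD of 5 hearts; Arntl and Npas2 lie lower and the other 8 genes higher at 40 cGy, and sham replicate 4 is the highest sham heart for Dbp and Bhlhe41.

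Genes that cells switch on quickly after a stimulus were lower in Cs 40 cGy hearts where they were called. Nr4a1, an orphan nuclear receptor gene, and Atf3, a transcription factor gene induced by stress, were the 2 called genes among 18 immediate early genes, both lower, with a median change of -0.20 over the 18. Sgk1, a kinase gene that glucocorticoids and serum induce, and Errfi1, which codes for a brake on the EGF receptor, were the 2 called among 13 glucocorticoid-induced genes, both lower, with a median of -0.16. Sik1, the salt-inducible kinase, was the 1 called among 7 measured genes of that family and of CREB targets, and it was lower. Over all genes 0.0718% were called lower and 0.22% in either direction, and these shares apply to the list counts below too. All lists were chosen with earlier results of these data known, which favours called members in them.

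Errfi1 passed the stricter threshold as well. It had 6.30, 6.58, 6.44, 7.01 and 7.10 in Cs 40 cGy hearts, against 7.45, 7.70, 7.08, 7.98 and 7.84 in Cs sham hearts. Only sham replicate 3 reached into the exposed range. The change was -0.92 (SE 0.17, limma adjusted p = 0.0348).

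Nr4a1 fell by 1.07 (SE 0.26, limma adjusted p = 0.201), with 5.68, 5.67, 6.63, 6.81 and 6.49 in Cs 40 cGy hearts against 6.75, 7.13, 6.98, 8.17 and 7.62 in Cs sham hearts. Sik1 fell by 0.97 (SE 0.22, limma adjusted p = 0.146), with 6.94, 6.61, 7.06, 7.99 and 7.33 in Cs 40 cGy hearts against 7.79, 8.07, 7.58, 8.80 and 8.55 in Cs sham hearts. In both genes Cs 40 cGy replicate 4, of batch 2, lay above the lowest sham heart, of batch 1, and the groups did not overlap within a batch. Leaving out single hearts ended the call of Nr4a1 in 9 of 10 fits and that of Sik1 in 6.

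Sgk1 fell by 0.67 (SE 0.14, limma adjusted p = 0.101), with 6.41 to 7.28 in Cs 40 cGy hearts against 7.22 to 7.82 in Cs sham hearts. Atf3 fell by 0.55 (SE 0.13, limma adjusted p = 0.177), with 5.72 to 6.48 in Cs 40 cGy hearts against 6.23 to 6.79 in Cs sham hearts. For both genes the ranges of the groups overlapped at the edge. Classical members of the immediate early list did not pass: Fos was at -0.19 (SE 0.25), Fosb at 0.07 (SE 0.15), Jun at -0.26 (SE 0.13) and Junb at 0.11 (SE 0.14). Fkbp5, Tsc22d3, Per1 and Zbtb16, which glucocorticoids induce, were between -0.34 and -0.10, and none of the 4 was called.

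Of 15 genes of glucose uptake and glycogen, 2 were called, 1 in each direction. Irs2, an adaptor of the insulin receptor, fell by 0.48 (SE 0.11, limma adjusted p = 0.177), with 6.47 to 6.93 in Cs 40 cGy hearts against 7.04 to 7.63 in Cs sham hearts. Pik3ip1, which codes for an inhibitor of PI3 kinase, rose by 0.65 (SE 0.14, limma adjusted p = 0.101), with 8.13 to 8.69 in Cs 40 cGy hearts against 7.60 to 8.00 in Cs sham hearts. Groups did not overlap for either gene. The median over the list was 0.04, and the glucose transporter genes Slc2a1 and Slc2a4 were at 0.10 (SE 0.12) and -0.02 (SE 0.10). Socs2, which restrains growth hormone signalling and was in no list, rose by 0.54 (SE 0.13, limma adjusted p = 0.201), with 8.40 to 8.83 in Cs 40 cGy hearts against 7.94 to 8.43 in Cs sham hearts.

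Tcap codes for telethonin, a protein that caps titin at the Z-disc, where sarcomeres join, and it was the 1 called gene among 19 Z-disc genes. Its signals were 10.49, 10.30, 10.42, 10.63 and 10.69 in Cs 40 cGy hearts, against 9.97, 9.92, 9.94, 9.99 and 9.87 in Cs sham hearts. The sham hearts lay close together (SD 0.05) and every exposed heart was above them. The change was 0.57 (SE 0.08, limma adjusted p = 0.00171), or 1.49-fold, with 0.46 in batch 1 and 0.73 in batch 2. The other Z-disc genes had a median near 0 (0.01 over all 19), with Actn2, Ldb3, Csrp3 and Myoz2 between -0.00 and 0.07.

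Of the muscle lists beyond the Z-disc, none held a called gene, where 0.22% of all genes were called. None of 12 contractile sarcomere genes was called, and their changes ran from -0.08 to 0.03, with Myh6, the main myosin heavy chain of the adult mouse heart, at 0.01 (SE 0.06). None of 12 calcium handling genes and none of 8 measured cardiac stress genes was called, and those stress genes included the natriuretic peptide genes Nppa (-0.50, SE 0.45) and Nppb (-0.40, SE 0.21). Syne1, in no list, codes for nesprin-1, which links the nucleus to the cytoskeleton. It fell by 0.32 (SE 0.08, limma adjusted p = 0.201), with 8.75 to 9.13 in Cs 40 cGy hearts against 9.07 to 9.30 in Cs sham hearts, and lost the call in 8 of 10 fits without a heart.

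Of 8 colony stimulating factor and receptor genes, 1 was called, and of 21 chemokine genes also 1, both higher in Cs 40 cGy hearts, while none of 15 macrophage markers was called. Csf1, the first of these genes, codes for the growth factor on which macrophages depend. It had 9.36, 9.35, 9.39, 9.32 and 9.70 in Cs 40 cGy hearts, against 8.54, 8.75, 8.98, 9.05 and 9.04 in Cs sham hearts, with no overlap. The change was 0.55 (SE 0.10, limma adjusted p = 0.0219). The receptor gene Csf1r was at 0.13 (SE 0.14).

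Ccl12, a chemokine gene that draws monocytes, had 5.49, 5.23, 5.53, 4.66 and 5.36 in Cs 40 cGy hearts, against 4.38, 4.69, 3.69, 4.05 and 3.91 in Cs sham hearts. These are dim signals, and 1 sham heart did not exceed the negative controls of its array in the deposited values. The change was 1.11 (SE 0.27, limma adjusted p = 0.201), and the median over the 21 chemokine genes was 0.10. Ccl2, Ccl3, Ccl4 and Ccl5 were between -0.19 and 0.22, and none was called. The call of Ccl12 was lost in 8 of 10 fits without a heart.

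Of the next 4 genes only P2rx7 was in a list. Msr1, a scavenger receptor gene of macrophages, rose by 0.69 (SE 0.17, limma adjusted p = 0.201), with 4.85 to 5.29 in Cs 40 cGy hearts against 4.02 to 4.66 in Cs sham hearts, where 4 of 5 were above background. C3ar1, the receptor gene for complement fragment C3a, rose by 0.55 (SE 0.13, limma adjusted p = 0.177), with 6.53 to 6.90 in Cs 40 cGy hearts against 5.88 to 6.47 in Cs sham hearts. P2rx7, an ATP-gated channel gene that acts ahead of the inflammasome, rose by 0.51 (SE 0.12, limma adjusted p = 0.201), with 5.44 to 5.89 in Cs 40 cGy hearts against 4.69 to 5.67 in Cs sham hearts. Vsir, an immune checkpoint gene, rose by 0.42 (SE 0.10, limma adjusted p = 0.215), with 6.98 to 7.44 in Cs 40 cGy hearts against 6.74 to 7.04 in Cs sham hearts. Each of these 4 calls was lost when any of 8 or 9 single hearts was left out. P2rx7 was the 1 called among 11 inflammasome genes, in which Nlrp3 was at 0.03 (SE 0.15) and Casp1 at 0.41 (SE 0.18, limma adjusted p = 0.913).

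Of the 15 macrophage markers, measured beside these genes, 11 had a change above 0, and the median was 0.13 against -0.00 over all genes. Their summed level ran from 10.4 to 10.9 in Cs 40 cGy hearts and from 10.2 to 10.7 in Cs sham hearts. Adgre1, the F4/80 gene, was at -0.10 (SE 0.19), Aif1 at 0.48 (SE 0.27) and Mpeg1 at 0.52 (SE 0.20, limma adjusted p = 0.837). In whole hearts, more cells of a type and more RNA per cell cannot be told apart, and the part of macrophage number in these changes was not tested.

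Of 20 matrix protease and inhibitor genes, 2 were called, 1 in each direction. Adam19, a membrane-bound metalloprotease gene, had 6.29, 5.89, 6.13, 6.47 and 6.08 in Cs 40 cGy hearts, against 6.70, 6.67, 6.78, 6.98 and 7.10 in Cs sham hearts, with no overlap. The change was -0.67 (SE 0.10, limma adjusted p = 0.00397). Plau, the urokinase gene, had 5.36, 5.27, 5.53, 5.37 and 5.64 in Cs 40 cGy hearts, against 4.20, 4.69, 4.90, 4.38 and 4.89 in Cs sham hearts, also with no overlap. It rose by 0.82 (SE 0.17, limma adjusted p = 0.104), a call lost in 4 of 10 fits without a heart. The median over the list was -0.03.

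Cd248 and Aplnr were in no list. Cd248 codes for endosialin, a surface protein of stromal cells and pericytes. It had 7.15, 6.69, 7.02, 7.10 and 7.01 in Cs 40 cGy hearts, against 6.25, 6.46, 6.43, 6.58 and 6.60 in Cs sham hearts. All exposed hearts were above all sham hearts, and the change was 0.53 (SE 0.11, limma adjusted p = 0.0951), lost in 2 of 10 fits without a heart. Aplnr, the apelin receptor gene, rose by 0.54 (SE 0.13, limma adjusted p = 0.238), with 6.75 to 8.01 in Cs 40 cGy hearts against 6.26 to 7.56 in Cs sham hearts. Aplnr lay closest to the threshold and lost the call in 8 of 10 fits without a heart.

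Collagen genes were measured beside these genes. None of 16 collagen genes was called, and their changes ran from -0.25 to 0.17, with Col1a1 at 0.11 (SE 0.11) and Col3a1 at -0.04 (SE 0.13). As 0.22% of all genes were called, no call is the usual outcome for lists of this size. None of 15 genes of the TGF-beta axis was called (median 0.11), with Tgfb1 at 0.22 (SE 0.09, limma adjusted p = 0.913). Fibroblast markers (0 of 8 called, median 0.03), endothelial markers (0 of 11, median 0.01) and smooth muscle and pericyte markers (0 of 10, median 0.09) held no called gene.

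Gstt2, a theta glutathione transferase gene, was the 1 called among 18 glutathione transferases and Ephx1. Its signals were 6.32, 6.52, 6.58, 6.53 and 6.90 in Cs 40 cGy hearts, against 5.19, 5.96, 5.99, 5.95 and 5.69 in Cs sham hearts. All exposed hearts were above all sham hearts, and sham replicate 1 was the lowest. The change was 0.81 (SE 0.15, limma adjusted p = 0.0307). Its neighbours in the family, Gstt1 and Gstt3, were at 0.10 (SE 0.12) and 0.00 (SE 0.17), and none of 17 antioxidant genes was called.

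Mid1ip1, whose protein activates acetyl-CoA carboxylase in fat synthesis, rose by 0.71 (SE 0.14, limma adjusted p = 0.0415). It had 7.90, 7.94, 7.58, 7.88 and 8.44 in Cs 40 cGy hearts, against 6.85, 6.65, 7.17, 7.84 and 7.69 in Cs sham hearts, with the batch 2 sham hearts inside the exposed range. It was the 1 called among 9 fat synthesis genes, whose median was -0.22, with Fasn at -0.55 (SE 0.52) and Acly at -0.22 (SE 0.17). White adipocyte markers all had changes below 0 (8 of 8, median -0.47, 0 called), with summed levels of 11.70 to 12.03 in Cs 40 cGy hearts and 11.78 to 12.09 in Cs sham hearts.

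Stc2, a secreted glycoprotein gene of the stress response of the endoplasmic reticulum, rose by 0.60 (SE 0.13, limma adjusted p = 0.146), with 5.67 to 6.22 in Cs 40 cGy hearts against 4.68 to 5.87 in Cs sham hearts. It was the 1 called among 14 genes of the unfolded protein response, in which the chaperone gene Hspa5 was at 0.02 (SE 0.07). Slc7a2, a transporter gene of cationic amino acids, rose by 0.92 (SE 0.22, limma adjusted p = 0.201), with 4.61 to 5.25 in Cs 40 cGy hearts against 3.38 to 4.28 in Cs sham hearts. Only 2 of 5 sham hearts were above background for Slc7a2, against 5 of 5 exposed hearts, so that its change also rests in part on values not above background.

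The called genes not yet described, like 8 of those above, belonged to no list. Rgma, a membrane-anchored protein that aids BMP signalling, rose by 0.47 (SE 0.09, limma adjusted p = 0.0586), with 7.31 to 7.64 in Cs 40 cGy hearts against 6.71 to 7.30 in Cs sham hearts. Irf2bp2, a transcriptional corepressor gene, fell by 0.51 (SE 0.10, limma adjusted p = 0.0348), with 7.31 to 7.48 in Cs 40 cGy hearts against 7.60 to 8.10 in Cs sham hearts. Neither gene had overlapping groups. Fmn1, a formin gene of actin assembly, fell by 0.46 (SE 0.10, limma adjusted p = 0.138). Tmem106c rose by 0.48 (SE 0.10, limma adjusted p = 0.112) and Rwdd3, which aids the attachment of SUMO, by 0.42 (SE 0.10, limma adjusted p = 0.201).

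A further 4 called genes were dim, and their changes rest in part on values not above background. Wdr63, a dynein component gene, rose by 0.52 (SE 0.12, limma adjusted p = 0.177) and was above background in 4 of 5 Cs 40 cGy hearts and 1 of 5 Cs sham hearts. Olfr55, an olfactory receptor gene, was at -0.54 (SE 0.13, limma adjusted p = 0.177) and above background in 1 of 5 Cs 40 cGy hearts and 4 of 5 Cs sham hearts. Crip3, a LIM domain gene, fell by 0.52 (SE 0.12, limma adjusted p = 0.171) and was above background in 4 of 5 Cs 40 cGy hearts and 5 of 5 Cs sham hearts. Mex3b, an RNA-binding protein gene, was above background in 2 of 5 Cs 40 cGy hearts and not well above it in any Cs sham heart, so no fold is given, although it was called (limma adjusted p = 0.201).

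**Figure D3:**
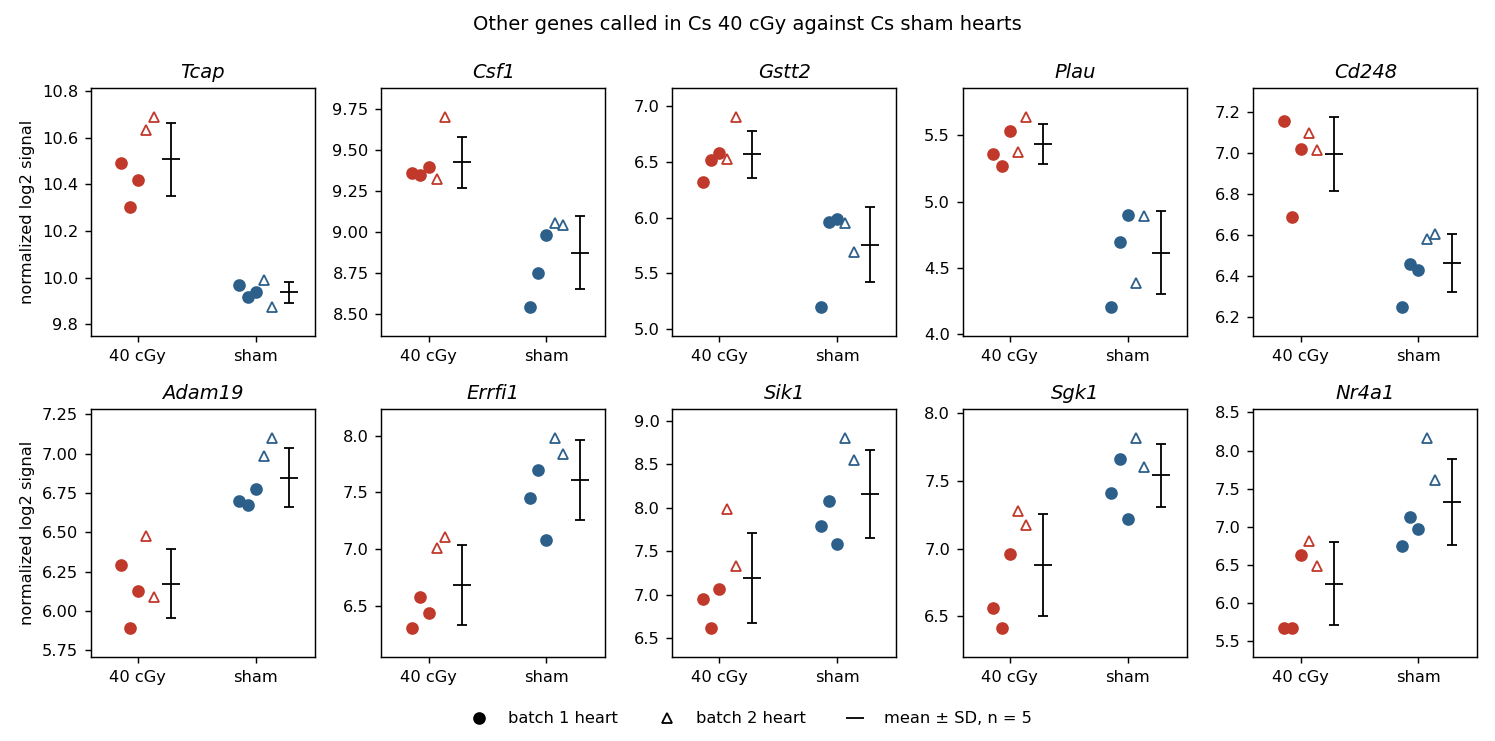
Normalized log2 signal (vertical axes, each with its own range) of 10 called genes outside the clock lists in single hearts, Cs 40 cGy left and Cs sham right in each panel. Filled circles are batch 1 hearts, open triangles batch 2 hearts, and bars the mean ± SD of 5 hearts; Tcap, Csf1, Gstt2, Plau and Cd248 lie higher and Adam19 lower at 40 cGy with no overlap, while Errfi1, Sik1, Sgk1 and Nr4a1 lie lower with ranges that meet.

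Genes that respond to radiation damage shortly after exposure were looked at in their own lists, 16 months after it. Over all genes 0.22% were called, so lists of this size mostly hold no call. None of 18 measured p53 target genes was called, and their changes ran from -0.35 to 0.24, with Mdm2 at 0.09 (SE 0.08) and Ccng1 at 0.01 (SE 0.07). None of 7 CDK inhibitor genes was called. Cdkn1a, the p21 gene, had 6.67, 7.30, 7.48, 9.03 and 8.21 in Cs 40 cGy hearts, against 8.15, 8.39, 6.74, 8.37 and 8.51 in Cs sham hearts. The spread within each group (SD 0.91 and 0.73) was larger than the difference between them (-0.29, SE 0.26, limma adjusted p = 0.999). None of 20 DNA damage signaling and repair genes was called, and their changes ran from -0.14 to 0.24.

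Respiratory chain genes were also near 0: 0 of 20 complex I genes (median -0.01) and 0 of 23 genes of complexes II to V (median 0.01) were called. None of 16 fasting and fat oxidation genes was called, with Pdk4 at 0.52 (SE 0.30) and Ucp3 at 0.21 (SE 0.31). Interferon-stimulated genes (0 of 15 called, median 0.05), MHC class II genes (0 of 6, median 0.04) and markers of T and NK cells (0 of 10, median 0.10) held no called gene either. With 5 hearts a group, small changes in these lists were not detectable.

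The higher doses of 137Cs were set beside 40 cGy, all against the same Cs sham hearts, so the 4 comparisons share their controls. Against 0.22% of all genes called at 40 cGy, the calls were 0.482% of all genes for 80 cGy, 0.682% for 120 cGy and 6.91% for 160 cGy. The 160 cGy group had 4 hearts, all labelled batch 1, so its changes rest on the batch difference estimated from the other Cs groups. In order of dose, the log2 changes of Dbp were 1.44, 1.12, 1.49 and 1.62, and those of Tcap were 0.57, 0.57, 0.63 and 0.85. Arntl was at -1.33, -0.64, -2.11 and -2.25, and Gstt2 at 0.81, 0.77, 1.11 and 1.09. For these genes the change at 40 cGy lay within or near the range of the other doses. The changes of Cd248 in the same order were 0.53, -0.05, 0.05 and 0.11, and those of Plau 0.82, 0.26, 0.13 and -0.05. Ccl12 had 1.11, 0.41, 0.47 and 0.22, and Socs2 had 0.54, -0.10, 0.05 and 0.28. For these 4 genes the lowest dose had the largest change, but they were picked from the genes called at that dose, which favours this order.

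Whether 40 cGy differed from the higher doses was tested directly, as Cs 40 cGy minus the mean of Cs 80, 120 and 160 cGy in the same fit. It called 5 of 19505 genes (0.0256%). Plau (0.71, SE 0.15, limma adjusted p = 0.249), Wdr63 (0.53, SE 0.10, limma adjusted p = 0.147), Cd248 (0.49, SE 0.09, limma adjusted p = 0.147) and Mapkapk2, a stress kinase gene (0.43, SE 0.08, limma adjusted p = 0.147), were higher at 40 cGy than in that mean. Olfr55 was lower (-0.51, SE 0.10, limma adjusted p = 0.249). Mapkapk2 was not called at 40 cGy against Cs sham (0.19, limma adjusted p = 0.974). Its changes against Cs sham were -0.07 at 80 cGy, -0.04 at 120 cGy and -0.62 at 160 cGy (limma adjusted p = 0.963, 0.953 and 0.00936). Its difference thus came mainly from the 160 cGy hearts. Ccl12 (0.74, limma adjusted p = 0.604) and Socs2 (0.46, limma adjusted p = 0.319) were not called in this contrast with the higher doses. The number of called genes was 0 without Cs 40 cGy replicate 1 or replicate 3, 1 without replicate 2, 2 without replicate 5 and 3 without replicate 4. It was 3 without sham replicate 4 and 8 without sham replicate 2, and 22 when 160 cGy replicate 4 was counted to batch 2. For the clock genes the contrast was not called, with Arntl at 0.34 (limma adjusted p = 0.67), Dbp at 0.03 and Per3 at -0.07.

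**Figure D4:**
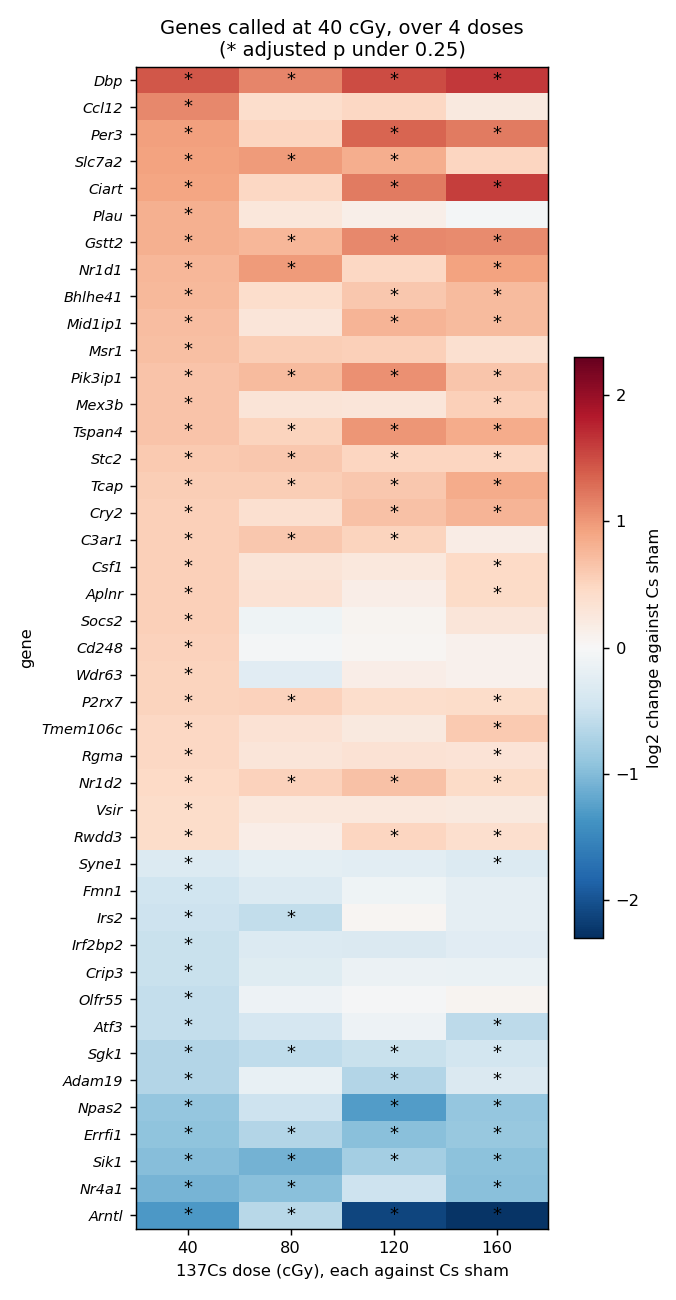
Log2 change against Cs sham of the 43 genes called at 40 cGy, by 137Cs dose in cGy (horizontal axis, low to high) and gene (vertical axis, ordered by the change at 40 cGy). Red is higher and blue lower than in Cs sham hearts, and asterisks mark an adjusted p under 0.25; all 4 columns use the same sham hearts, and rows such as Plau, Cd248 and Wdr63 are coloured mainly at 40 cGy.

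Hearts exposed to the highest doses of the 2 ions, 32 cGy of Si and 26 cGy of Ti, were compared with their own sham hearts in a fit over all 72 arrays. Against these sham hearts 2.44% of all genes were called after Si and 0.0615% after Ti. The difference between the 137Cs effect and the Si effect was called for 60 genes (0.308%). Arntl was at 1.91 (SE 0.31) after Si, with a difference between effects of -3.23 (limma adjusted p = 1.149e-06), and Adam19 was at 0.72 (SE 0.12) after Si, with a difference of -1.39 (limma adjusted p = 3.67e-07). Ciart was at -2.25 (SE 0.36) after Si and Tcap at -0.57 (SE 0.17), with differences of 3.15 (limma adjusted p = 1.145e-04) and 1.14 (limma adjusted p = 0.00611). Genes called both for this difference and in Cs 40 cGy against Cs sham, which is a part of it, were Dbp, Per3, Ciart, Gstt2, Bhlhe41, Mid1ip1, Pik3ip1, Tspan4, Stc2, Tcap, Cry2, Rgma, Nr1d2, Syne1, Adam19, Npas2, Errfi1 and Arntl. Si sham hearts were 4 in number and all in batch 2, so the Si effect rests on the batch difference estimated from other groups. Arntl stood at 7.18 ± 0.34 in Si 32 cGy hearts and 5.40 ± 0.52 in Si sham hearts, beside 7.46 ± 0.24 in Cs sham hearts (mean ± SD). The part of the Si sham level in the Si effect was not tested.

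The sham groups were set side by side for the same genes. Arntl was at 6.14 ± 0.28 in Cs 40 cGy hearts, 7.46 ± 0.24 in Cs sham hearts, 7.03 ± 0.43 in Ti sham hearts and 5.40 ± 0.52 in Si sham hearts (SD, n = 5, 5, 5 and 4). Tcap was at 10.51 in Cs 40 cGy hearts, 9.94 in Cs sham, 10.29 in Ti sham and 11.03 in Si sham hearts. The differences Cs sham minus Si sham were 2.19 for Arntl (limma adjusted p = 2.744e-05) and -1.002 for Tcap (limma adjusted p = 4.942e-04). Over all genes, 5.67% were called between Cs sham and Si sham hearts and 0.113% between Cs sham and Ti sham hearts, with the Cs sham hearts shared by these comparisons and by the one at 40 cGy. Of the 43 genes called at 40 cGy, 22 were also called between Cs sham and Si sham hearts. The shared Cs sham hearts favour such an overlap. Csf1, Cd248 and Plau were not called between Cs sham and Si sham hearts (limma adjusted p = 0.686, 0.625 and 0.924). Cs 40 cGy hearts had the highest mean of the 4 groups for each of these genes, which were called higher in the same hearts.

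Between 40 cGy of 137Cs and 26 cGy of Ti no difference of effects was called (0 genes at an adjusted p under 0.25 in limma, smallest adjusted p 0.584, 1039 genes at an unadjusted p under 0.05). Dbp was at -0.05 after Ti, with a difference of 1.48 (limma adjusted p = 0.829), and Arntl was at -0.60, with a difference of -0.73 (limma adjusted p = 0.953). The missing call does not show that the effects are alike.

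**Figure D5:**
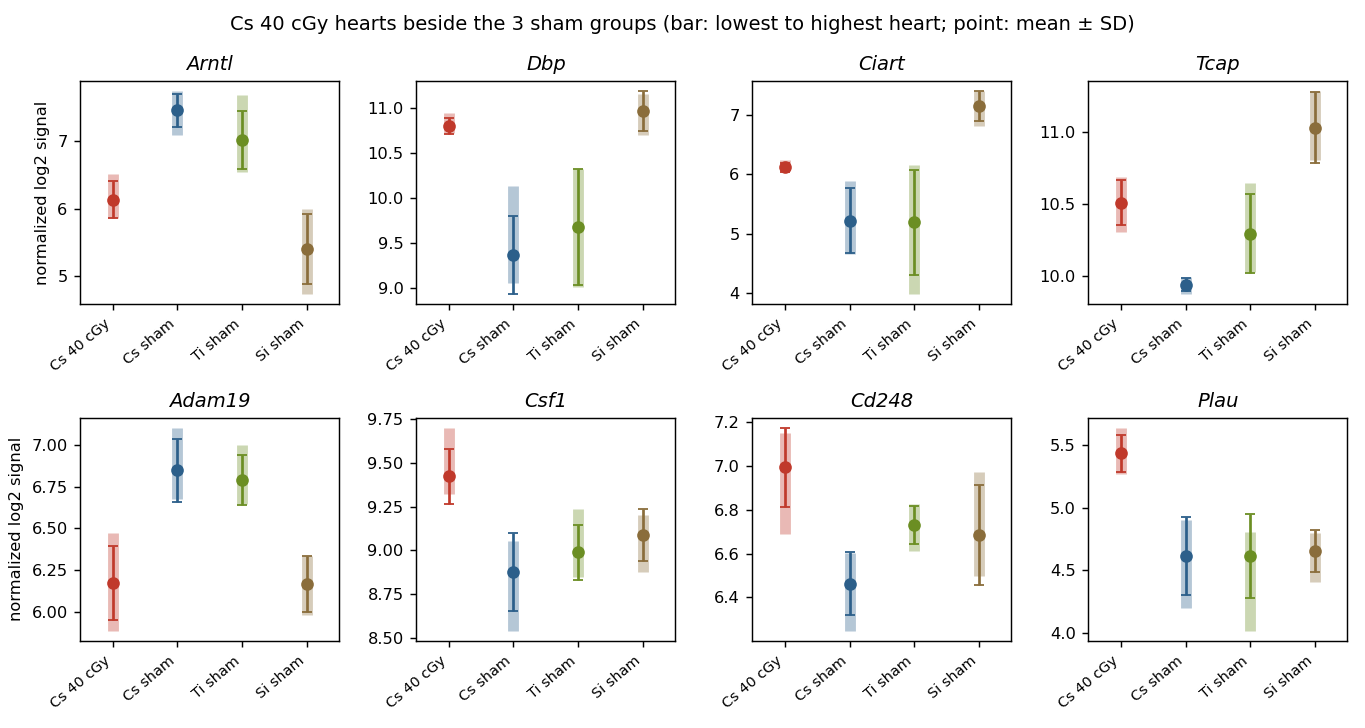
Normalized log2 signal (vertical axes, each with its own range) of 8 called genes in Cs 40 cGy hearts and in the 3 sham groups, ordered Cs 40 cGy, Cs sham, Ti sham, Si sham. Pale bars span the lowest to the highest heart and points with whiskers are the mean ± SD (n = 5, 5, 5 and 4); for Arntl, Dbp, Ciart, Tcap and Adam19 the mean of the Si sham hearts is nearer to that of the Cs 40 cGy hearts, and for Csf1, Cd248 and Plau it is nearer to that of the Cs sham hearts.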

How the data were processed

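Heart RNA was measured on Clariom S Mouse arrays. The authors made the deposited log2 values with RMA (background correction, log2 transformation and quantile normalization); the sources used here give neither its version nor a genome build. Deposited values lay between 0.31 and 13.65 for 29129 probe sets, and array medians differed, so the 22206 transcript-cluster probe sets were quantile normalized again over all 72 arrays. Gene symbols came from the platform annotation: 19572 probe sets had 1 symbol, 0 had several and 2634 had none. For the 55 genes with several probe sets the one with the highest mean was kept, and all 19505 genes were found in RefSeq (GRCm38.p6). Start windows were taken from RefSeq, GRCm38.p6.

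Groups and batches came from the sample labels. limma 3.58.1 in R 4.3.3 fitted dose group and batch over the 24 Cs arrays with moderated statistics, and the 72 arrays of 15 groups for the comparison with the ions. P-values were adjusted by the Benjamini-Hochberg method over all genes. Background was the median deposited value of the array's 6546 negative controls, and a gene that did not exceed it was taken as not above background. Where that held on every array of a group, only a bound could be given. The scripts were tested on simulated data.

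Every called gene is named, and of each list the called members and up to 4 others in list order. The 48 gene lists, the members and the rule were chosen with earlier results of these data known. Alternatives were other normalizations, other batch terms, other sample sets, moderation with trend, dropping dim genes (a log2 signal of 5 had to be reached on 4 of the 10 arrays), a replicate block, array weights, other thresholds and each heart left out. Leaving out 160 cGy replicate 4 was added after the data were seen.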

Additional observations from a re-analysis of the deposited data

Results flagged for a closer look

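Among the 86 groups of 5 hearts that the 43 called genes give, 7 held a heart far from the 4 others, where chance gives about 1 in 20 groups. Among Cs 40 cGy hearts these were Csf1 in replicate 5 (9.70, high), Vsir in replicate 1 (6.98, low) and Fmn1 in replicate 4 (6.50, low). Among Cs sham hearts they were Dbp (10.13) and Bhlhe41 (8.19) in replicate 4, both high, Socs2 in replicate 5 (8.43, high) and Tspan4 in replicate 1 (5.96, low). Sham replicate 4 thus stood out in 2 clock genes, in the direction of the exposed hearts. Its Arntl signal (7.09) was the lowest and its Ciart signal (5.88) the highest of the sham hearts, while its Npas2 signal (6.05) was also the highest, away from the exposed hearts.

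The effect of 40 cGy of 137Cs differed from the effect of 32 cGy of Si in 17 called genes (limma interaction, adjusted p under 0.05). Over all genes the share was 0.133%. The comparison by which these genes were called is a part of this difference, which favours such a result. Si sham hearts were all in batch 2, and 5.67% of all genes were called between Cs sham and Si sham hearts. The difference of log2 changes, 137Cs minus Si, was 3.15 for Ciart, 2.52 for Dbp, 1.88 for Per3, 1.35 for Mid1ip1, 1.31 for Bhlhe41, 1.29 for Gstt2, 1.24 for Tspan4, 1.14 for Pik3ip1, 1.14 for Tcap, 1.01 for Cry2, 1.00 for Nr1d2 and 0.88 for Rgma. It was -3.23 for Arntl, -1.97 for Npas2, -1.39 for Adam19, -1.27 for Errfi1 and -0.54 for Syne1.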

How the results depend on the processing

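The 43 called genes became 5 in the values as deposited (2 of the 43 among them), 19 with array medians aligned, 12 without a batch term, 24 in the fit over all 72 arrays, 87 with array weights and 12 at the threshold of 0.05. Within single batches the same threshold called 10 genes in batch 1 and 2 in batch 2. Leaving out single hearts gave 18 to 42 called genes, the fewest without Cs 40 cGy replicate 2, with 42 without sham replicate 2, 33 without Cs 40 cGy replicate 4 and 27 or fewer without any other heart. An alternative chosen after the data were seen, without 160 cGy replicate 4, gave 57. The direction of each of the 43 genes was the same under all alternatives that tested it. Dbp and Arntl were called in all 24 of them. The other alternatives, including batch as a random block, gave 29 to 61 genes. Among called genes 67.4% were higher, against 40% as deposited, 83.3% without a batch term and 57.5% with array weights. No normalization moved the median change of all genes by over 0.1.

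The labels give same-numbered hearts no link beyond the number. The correlation of their deviations ran from 0.0085 to 0.39 before batch and from -0.21 to 0.10 after batch. With 3 or 2 hearts per group in a batch, the deviations constrain each other, so these values cannot decide whether hearts were paired. A replicate block gave 49 called genes, 39 of the 43 among them. The contrast with the higher 137Cs doses called 5 genes, but 13 as deposited, 2 without a batch term, 22 with 160 cGy replicate 4 counted to batch 2, 4 with a replicate block and 0 to 8 without single hearts. The comparison with Si called 60 genes, but 3 as deposited, 66 with a replicate block and 43 to 70 without single hearts. The comparison with Ti called 0 throughout these alternatives. Causes of these differences were not tested. The number of hearts and the signal over background of dim genes limit precision.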

Other observations

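Atrial genes varied between hearts far more than between groups. Myl7, an atrial myosin light chain gene, had 9.69, 6.88, 10.68, 4.55 and 3.75 in Cs 40 cGy hearts, against 10.01, 10.12, 9.96, 8.38 and 4.05 in Cs sham hearts. Bmp10, a growth factor gene of the right atrium, had 10.30, 6.51, 10.83, 2.93 and 3.23 in Cs 40 cGy hearts, against 4.51, 3.72, 9.92, 3.81 and 3.72 in Cs sham hearts. None of 8 atrial genes was called. Hepatocyte markers likewise spanned 8.95 to 12.5 in summed level in Cs 40 cGy hearts and 8.78 to 12.4 in Cs sham hearts, with 0 of 11 called.

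Platelet and neutrophil markers had 8 of 10 changes above 0 (median 0.18) and 0 calls. Ppbp, a platelet chemokine gene, was at 1.12 (SE 0.40, limma adjusted p = 0.809) and Pf4 at 0.37 (SE 0.17, limma adjusted p = 0.959). Slc41a3, a magnesium transporter gene, was at -0.50 (SE 0.13, limma adjusted p = 0.301), just outside the threshold, and Tfrc, the transferrin receptor gene, at -0.60 (SE 0.22, limma adjusted p = 0.809).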
